A study of Mus musculus with 22 samples.

Results

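MHC class II genes and dendritic cell genes were followed as a panel of 9 genes, H2-Aa, H2-Ab1, H2-Eb1, Cd74, Ciita, H2-DMa, H2-DMb1, Flt3 and Cd209a, chosen by name and found once each among the 56691 genes of the count tables. They were measured by bulk RNA sequencing in brain cells enriched with CD11b-coated magnetic beads from wildtype pups of the CF-1 stock, an outbred mouse. HIE pups came from dams injected with lipopolysaccharide (LPS), a bacterial cell wall product, late in gestation and were then exposed to hypoxia on P6, as a model of neonatal hypoxic-ischemic encephalopathy. Control pups were compared with them on P7 and P14, and pups labelled hypoxia on P14; whether the dams of the hypoxia group received an injection is not given in the sources used here. Each of the 5 groups held 4 animals from 2 litters, 20 animals and 22 libraries in all, where a litter is read from the shared first part of the animal names. All 4 HIE animals of P7 were labelled male, and each other group held 2 males and 2 females. The names of the P7 HIE animals begin with N and those of their controls with P6H. At P14 all hypoxia names begin with P6H, while control and HIE names begin with P4H or P6H. The sources used here do not explain these prefixes. The 4 controls set against P7 HIE carry the times P8, P9, P10 and P11 in their labels, while the study's methods give P7.

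MHC class II molecules carry peptides from ingested proteins to the cell surface, where CD4+ T cells read them. H2-Aa and H2-Ab1 encode the α and β chains of the I-A molecule and H2-Eb1 the β chain of I-E. Cd74 encodes the invariant chain, which fills the peptide groove until H2-DM, a dimer of H2-DMa and H2-DMb1 or H2-DMb2 products, helps to load a peptide. Ciita encodes the class II transactivator, the switch that turns these genes on by joining factors bound at the X and Y boxes upstream of them. Flt3 encodes the receptor through which dendritic cells develop, and Cd209a a C-type lectin of the DC-SIGN family used as a marker of monocyte-derived and conventional dendritic cells. In the resting brain class II is known mainly from macrophages and dendritic cells of the meninges, choroid plexus and perivascular spaces, and microglia carry little of it until stimulated.

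The sequence just upstream of the 3 chain genes is shown because it is the part that reads Ciita. Each stretch runs from base -90 to base -6 before the start of the canonical GENCODE transcript, in GRCm39, written in the direction of transcription. Capitals mark the Y box letters CTGATTGG and, where present, an X box match, which is AG, AC and ATG in this order with 2 unspecified bases between one and the next.
H2-Aa, chr17:34506803-34506887, minus strand: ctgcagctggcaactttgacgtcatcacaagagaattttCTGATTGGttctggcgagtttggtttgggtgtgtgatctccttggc
H2-Ab1, chr17:34482093-34482177, plus strand: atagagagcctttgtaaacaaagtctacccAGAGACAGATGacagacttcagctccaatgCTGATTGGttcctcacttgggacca
H2-Eb1, chr17:34524723-34524807, plus strand: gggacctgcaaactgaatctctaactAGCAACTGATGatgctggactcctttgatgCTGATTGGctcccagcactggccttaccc

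All 3 genes held the Y box letters, at -51 in H2-Aa, -30 in H2-Ab1 and -34 in H2-Eb1. H2-Ab1 and H2-Eb1 also held the X box letters, at -60 and -64. Searched on both strands in the 250 bases upstream of 21770 protein-coding genes, CTGATTGG was found in 4.54% and the X box letters in 2.45%. H2-DMa held an X box match at -73 and the Y box core ATTGG, which is contained in CTGATTGG and was found in 36.5% of all promoters, at -39. No X box or CTGATTGG match lay in this window of H2-DMb1, Cd74, Ciita, Flt3 or Cd209a. In the RefSeq promoter table for GRCm38.p6, which held 6 of the 9 genes and other start sites for some of them, CTGATTGG was found for H2-Aa and H2-Eb1 and the X box letters for H2-Eb1 and H2-DMb1. These are letter matches and no binding was measured.

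The class II genes lie together on chromosome 17 (GRCm39, GENCODE M39): H2-DMa at 34338515-34358958, H2-DMb1 at 34372046-34379204, H2-Ab1 at 34476663-34488393, H2-Aa at 34493404-34506798 on the minus strand, and H2-Eb1 at 34504236-34535648. Exons of H2-Aa and H2-Eb1 overlap on opposite strands over 118 bases, and exons of H2-DMa and the neighbouring gene Brd2 over 510 bases; the library kit keeps strand, but the counting setting is not given in the sources used here. Ciita lies on chromosome 16 at 10297923-10347694, Flt3 on chromosome 5 at 147267551-147337483 on the minus strand, and Cd209a on chromosome 8 at 3793397-3798984 on the minus strand. H2-DMb1 shares 27.2% of the 50-base stretches of its canonical transcript with H2-DMb2, so the split of reads between these paralogs is uncertain. No stretch of 50 bases was shared with the transcripts of any other gene for the other 8 genes.

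Library depth was between 70.2 and 83.5 M counts at P7 (M, mega) and between 29.8 and 46.4 M at P14. Levels are CPM, the count of a gene relative to the library's total, scaled by trimmed mean of M values (TMM) within each age. Microglia markers dominated most samples, with a summed level of 13926 to 28805 CPM over the 11 of 12 listed markers found in the tables, except in the 2 control animals of litter P6H63 at P7, which stood apart at 2155 and 1395 CPM. In the same 2 animals astrocyte markers summed to 4184 and 5140 CPM, against 1313 to 3407 CPM in the other 18. For HIE against control at P7, the fitted values are therefore given with and without this litter. The labels call the cells monocytes (CD11b+), and the 8 listed monocyte markers summed to between 75.9 and 150.2 CPM. Vcan alone was at 24.3 to 89.0 CPM of this, highest in P6H63-8, where the sum was 104 CPM and Ccr2 was at 2.16 CPM. The sum is therefore not read as monocyte content.

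By mean CPM, Cd74 was the most abundant member in all 5 groups, followed by H2-Aa at P14 and by H2-DMa at P7. Per kilobase of canonical transcript, the P14 controls had 106 ± 12.4 CPM of Cd74 (SD, n = 4), 41.2 ± 2.33 of H2-Aa, 24.6 ± 2.62 of H2-Ab1, 20.7 ± 5.01 of H2-Eb1 and 18.1 ± 6.50 of H2-DMa. H2-DMb1 followed at 7.59 ± 1.20 CPM per kilobase, Cd209a at 6.06 ± 0.51, Ciita at 0.632 ± 0.109 and Flt3 at 0.596 ± 0.183. The mean with its SD overlapped between H2-Eb1 and both H2-Ab1 above it and H2-DMa below it, and between Ciita and Flt3. The genes were read in the same 4 animals, and their differences within an animal were not tested. In bulk samples, fewer cells of a type and less RNA per cell cannot be told apart.

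**Figure D1:**
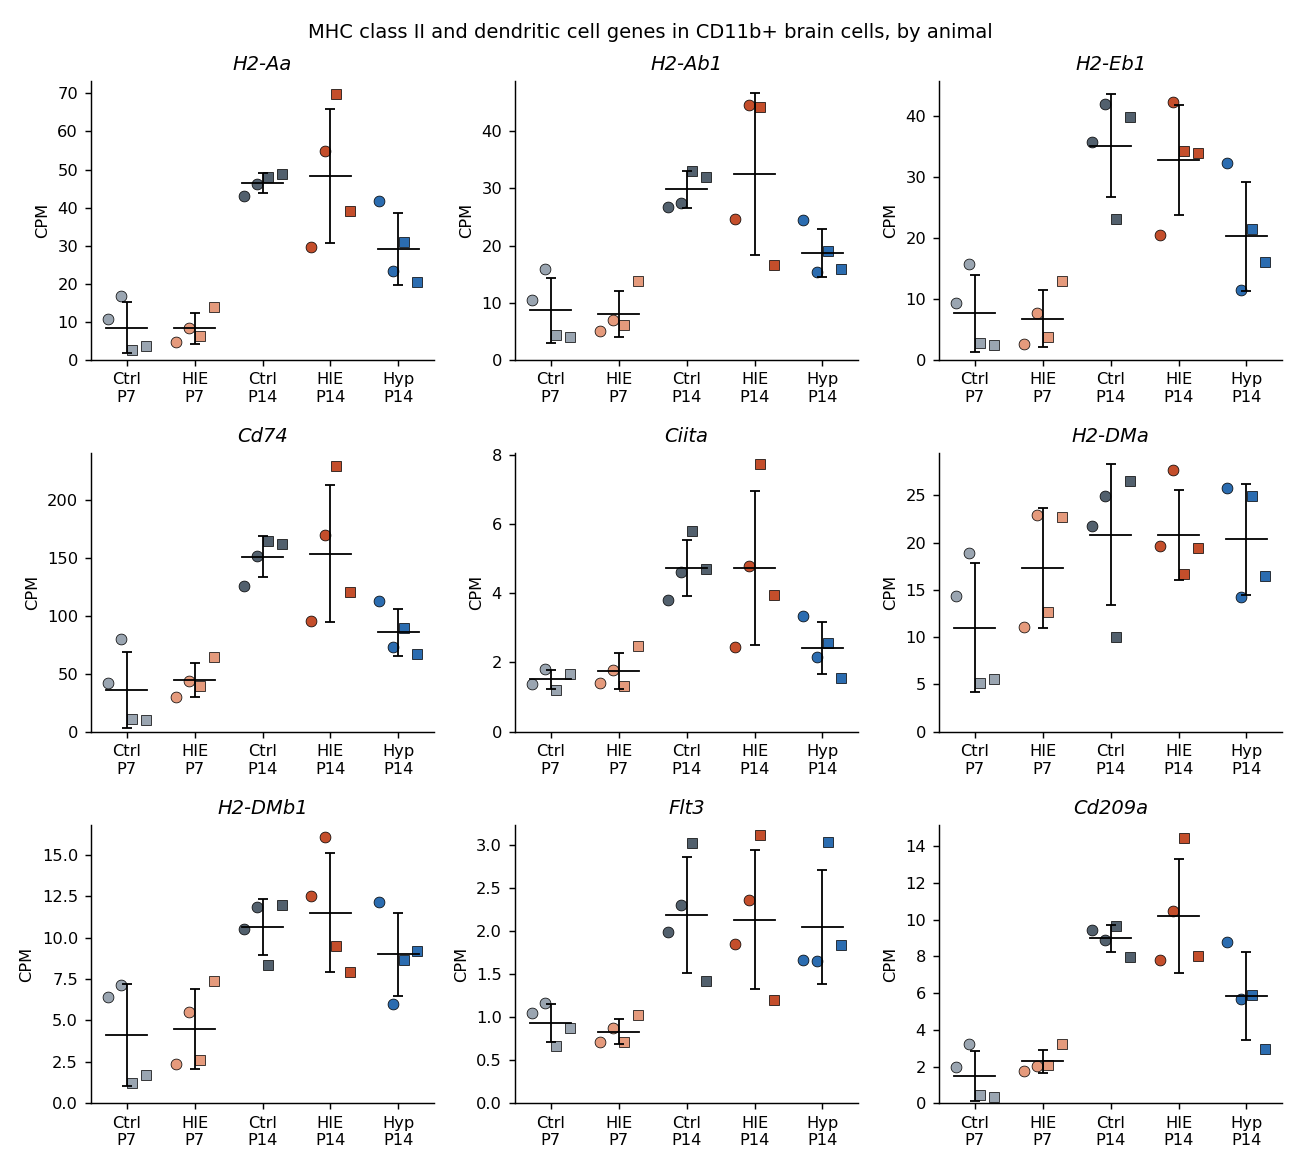
CPM of each of the 9 genes (y axis) in the 20 animals by group (x axis). Circles and squares are the 2 litters of a group (circles P6H55, N5, P4H4, P4H1 and P6H7, and squares P6H63, N8, P6H8, P6H12 and P6H9), and bars give the mean and SD. For H2-Aa, H2-Ab1, Cd74 and Ciita all 4 hypoxia animals at P14 lie below all 4 controls.

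At P14, HIE and control animals had close mean levels of all members. Cd74 was at 126 and 152 CPM in the controls of litter P4H4 and at 165 and 162 in those of P6H8. In HIE animals it was at 95.4 and 170 CPM in litter P4H1 and at 230 and 120.4 in P6H12. The HIE values thus ran from below the lowest to above the highest control, and in both HIE litters one animal had 1.78 or 1.91 times the level of its littermate. H2-Aa was at 42.9, 46.2, 47.9 and 48.9 CPM in the controls and at 29.6, 54.7, 69.8 and 39.2 CPM in the HIE animals, in the same order of litters. H2-Ab1 was at 26.8, 27.5, 33.0 and 32.1 CPM in controls and at 24.7, 44.6, 44.2 and 16.6 CPM in HIE. The same 2 HIE animals, P4H1-6F and P6H12-11M, were highest for both I-A chains and for Cd74. They are also the 2 animals with 2 libraries, with totals of 76166694 and 70491706 counts against 29751486 to 46404071 in the other P14 animals, and with only the first library of each the log2 fold change of Cd74 was 0.03 against control, where that of both libraries was 0.02. Ciita was at 3.81, 4.61, 5.79 and 4.72 CPM in controls and at 2.45, 4.80, 7.74 and 3.96 CPM in HIE, where P6H12-11M was highest. The SD of Cd74 was 59.2 CPM in HIE and 17.8 CPM in control animals.

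None of the 9 genes passed an adjusted p of 0.05 for HIE against control at P14 by edgeR's quasi-likelihood test with Benjamini-Hochberg adjustment, where 0.00478% of the genes tested did, and none had an unadjusted p under 0.05. The fitted log2 fold changes lay between -0.10 (SE 0.23) for H2-Eb1 and 0.18 (SE 0.20) for Cd209a, around a median of 0.02, beside 0.01 over all genes tested. Of the 18 other genes of the class II pathway, 0 passed in either direction. The most abundant of them, Lgmn and Ctss, which encode the proteases legumain and cathepsin S, had log2 fold changes of 0.27 (SE 0.17) and 0.19 (SE 0.16).

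The hypoxia group at P14 had the lowest mean of all 9 genes at that age, but no member passed the test. Cd74 was at 113 and 73.3 CPM in litter P6H7 and at 89.2 and 67.1 CPM in P6H9, against 126 to 165 CPM in controls. H2-Aa was at 41.7, 23.3, 31.0 and 20.5 CPM, against 42.9 to 48.9 CPM in controls. H2-Ab1 was at 24.5, 15.3, 19.1 and 16.0 CPM, against 26.8 to 33.0 CPM. All 4 hypoxia animals were thus below all 4 controls for these 3 genes, with P6H7-16M closest to the controls. Ciita was at 3.36, 2.16, 2.55 and 1.56 CPM and again lay below the control range of 3.81 to 5.79 CPM. H2-Eb1, at 32.3, 11.5, 21.5 and 16.1 CPM, overlapped with the controls, which ran from 23.1 to 42.1 CPM. Cd209a, at 8.80, 5.70, 5.92 and 2.95 CPM, also overlapped, with controls at 7.96 to 9.66 CPM.

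Lower values without overlap were thus found in hypoxia for 4 of the 9 genes, H2-Aa, H2-Ab1, Cd74 and Ciita, beside 3.04% of all genes with a mean of at least 1 CPM in these animals. The fitted log2 fold changes were -0.82 (SE 0.16) for Cd74, -0.97 (SE 0.25) for Ciita, -0.67 (SE 0.16) for H2-Ab1, -0.67 (SE 0.20) for H2-Aa, -0.79 (SE 0.30) for H2-Eb1 and -0.62 (SE 0.28) for Cd209a. By edgeR's quasi-likelihood test, Cd74 had an unadjusted p of 0.00059 and an adjusted p of 0.461. Of the 9 genes, 5 had an unadjusted p under 0.05, beside 1996 of the 20953 genes tested. An adjusted p under 0.05 was found for 0 of the 9, beside 0.00955% of all genes tested. With DESeq2, 3 of the 9 members passed, beside 164 of the 20953 genes tested. They were Cd74 at an adjusted p of 0.0071, H2-Ab1 at 0.0336 and Ciita at 0.0372. The direction for these 6 genes held when any single animal was left out, with Cd74 between -0.98 and -0.72. With the P6H litters alone, where the 2 control animals of litter P6H8 stand for the controls, Cd74 had a log2 fold change of -0.93 and an adjusted p of 0.813.

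Members of the panel did not stand together in this comparison. H2-DMa had a log2 fold change of -0.03 (SE 0.30), H2-DMb1 of -0.25 (SE 0.21) and Flt3 of -0.09 (SE 0.30), and their ranges overlapped with the controls. H2-DMa was at 14.3 to 25.8 CPM in hypoxia and 10.01 to 26.5 CPM in controls. The median over the 9 genes was -0.67, beside -0.01 over all genes tested, and over the 18 other class II pathway genes it was 0.04, with 0 passing in either direction. Of the interferon gamma route that induces Ciita, 8 of 9 genes could be tested and 0 passed. By edgeR 1 of the 8 had an unadjusted p under 0.05, beside 1996 of the 20953 genes tested, and 6 had higher values. Ifngr1 and Jak1, a chain of the interferon gamma receptor and its kinase, had log2 fold changes of 0.14 (SE 0.13) and 0.13 (SE 0.10). Socs1, picked after its values were seen, was at 0.865 to 1.61 CPM in hypoxia and at 1.72 to 2.17 CPM in controls. Lower values without overlap were found for 3.04% of all genes. In HIE animals at P14 Socs1 was at 0.719 to 1.66 CPM. Ifng itself was at 0.132 CPM or less in every P14 animal.

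HIE animals were compared with the same hypoxia animals, so this comparison shares samples with the last one. Cd74 had a log2 fold change of 0.82 (SE 0.26), Ciita of 0.95 (SE 0.36), H2-Ab1 of 0.77 (SE 0.30), Cd209a of 0.77 (SE 0.32), H2-Aa of 0.71 (SE 0.29) and H2-Eb1 of 0.67 (SE 0.31). No member was without overlap between the 2 groups, beside 1.68% of all genes that were higher in HIE without overlap. For Cd74 the lowest HIE animal, at 95.4 CPM, was under the highest hypoxia animal, at 113 CPM. By edgeR, 5 of the 9 genes had an unadjusted p under 0.05, beside 947 of the 20951 genes tested. The adjusted threshold was passed by 0 of the 9, beside 0.00955% of all genes tested.

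**Figure D2:**
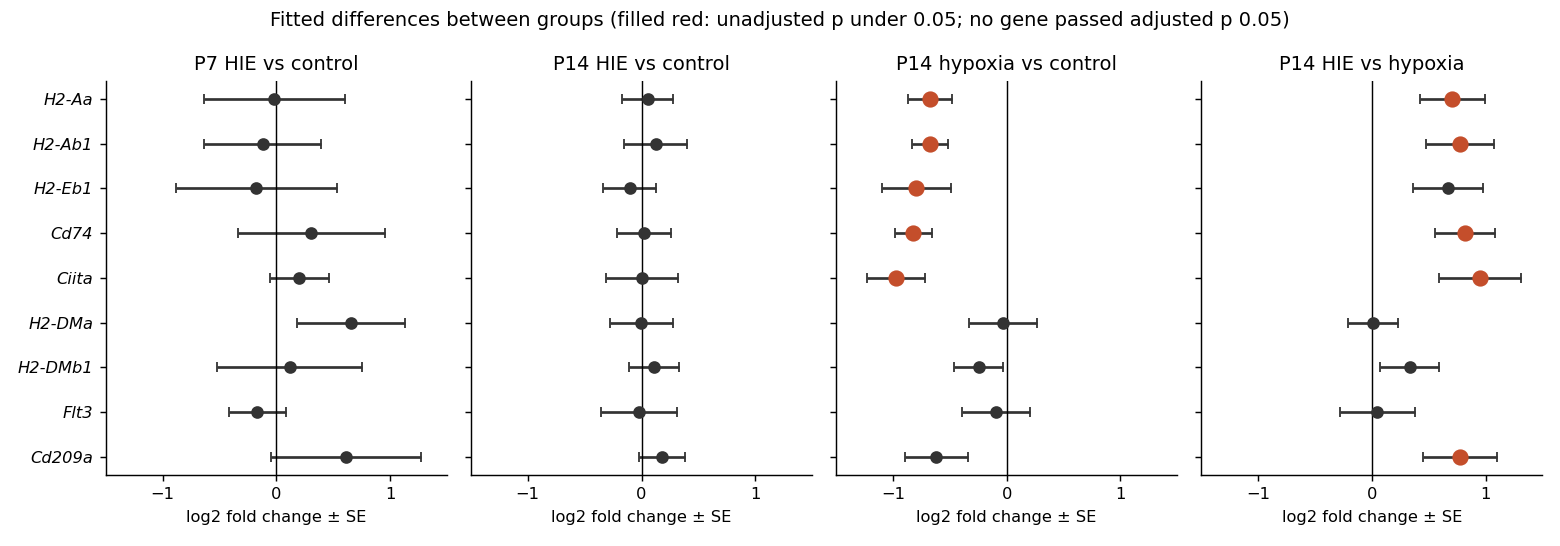
Fitted log2 fold change with its standard error (x axis) of each of the 9 genes (y axis) in the 4 comparisons. Red points have an unadjusted p under 0.05, and no gene passed an adjusted p of 0.05; the red points are in the 2 comparisons with the hypoxia animals.

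Markers of other cells gave the following levels beside the P14 results. The 8 border macrophage markers, which include Mrc1 and Lyve1 of perivascular and meningeal macrophages, summed to 2241 to 3595 CPM in hypoxia and to 2714 to 3523 CPM in control animals, and 0 of 8 passed. Stab1 and Mrc1, the most abundant of them, had log2 fold changes of -0.16 (SE 0.13) and 0.05 (SE 0.17) for hypoxia against control. The 11 microglia markers summed to 16751 to 26871 CPM in hypoxia and to 17271 to 23170 CPM in controls, with Csf1r at a log2 fold change of 0.03 (SE 0.16). Choroid plexus markers summed to 804 to 2316 CPM in hypoxia and 1052 to 3740 CPM in controls, and the 6 neuron markers to 85.8 to 165 CPM and 132 to 290 CPM. Of the 6 neuron markers 3 had an unadjusted p under 0.05, beside 1996 of the 20953 genes tested, and 0 passed the adjusted threshold. Their median log2 fold change was -0.81. The choroid plexus markers had one of -0.48 and the astrocyte markers one of -0.64, with 6 of 6 at lower values in both lists, and the endothelial markers one of 0.39. The 8 monocyte markers had 4 higher and 4 lower values around a median of 0.01. Of them 5 had an unadjusted p under 0.05, beside the same 1996 of 20953 genes. Among the 5 was Ccr2 at -0.55 (SE 0.21), which was picked after its values were seen. The part of these cells in the lower class II values was not tested. The 9 listed neighbours of the class II genes, such as Brd2 and Pbx2, had a median of 0.06 and 0 passed. For HIE against hypoxia, 4 of 6 choroid plexus markers had an unadjusted p under 0.05, beside 947 of the 20951 genes tested. Their median was 0.85, with 6 of 6 at higher values. The astrocyte markers had a median of 0.39, the border macrophage markers one of -0.09 and the microglia markers one of 0.07. Neuron markers were also lower for HIE against control at P14, with a median of -0.9996 and 6 of 6 at lower values. Their sums were 89.0 to 112 CPM in HIE animals. All 6 had an unadjusted p under 0.05 by edgeR, beside 2066 of the 20935 genes tested. The 9 class II and dendritic cell genes had a median of 0.02 there. The astrocyte markers had one of -0.43 and the choroid plexus markers one of 0.39. In these lists 0 passed the adjusted threshold, and their part in the class II values was not tested.

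The other dendritic cell markers did not form one picture. Of the 15 listed, 0 passed in any comparison of groups, and the median log2 fold change for hypoxia against control was -0.08. Cd83 and Fscn1, the most abundant, also occur in microglia and had log2 fold changes of -0.02 (SE 0.19) and 0.03 (SE 0.17) there. Xcr1 and Clec9a, receptors of the cross-presenting dendritic cell, were at or below 0.86 CPM and 1.85 CPM in all 20 animals, and Ccr7, the receptor of migrating dendritic cells, at or below 0.95 CPM. Itgax, the gene of the integrin CD11c, was picked out after its values were seen. It was at 14.4, 9.16, 13.9 and 11.2 CPM in hypoxia, at 14.9 to 28.1 CPM in controls and at 22.0 to 32.9 CPM in HIE at P14. Its log2 fold change was -0.78 (SE 0.21) for hypoxia against control, with an unadjusted p of 0.0047 and an adjusted p of 0.462 by edgeR. At P7 it was at 126 to 219 CPM in HIE and at 19.3 to 73.5 CPM in control animals. Its log2 fold change there was 2.12 (SE 0.43) with an adjusted p of 0.15 by edgeR, and 1.56 with one of 0.128 without the P6H63 litter. The 15 markers had a median of 0.69 at P7, with 11 at higher values. Without that litter the median was 0.16, with 9 of 15 at higher values and, among the lower ones, Dpp4 at -0.96 and Itgae at -0.65. Ccr2, a chemokine receptor of monocytes and of monocyte-derived dendritic cells that was also picked after its values were seen, had a log2 fold change of -0.55 (SE 0.21) for hypoxia against control at P14, with an adjusted p of 0.487.

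B cells also carry class II, and their markers gave mixed levels. Cd79a and Ms4a1 were at or below 0.90 and 0.78 CPM in all 20 animals, while Cd79b, the partner of Cd79a, was at 0.674 to 12.4 CPM. Ighm was at 19.8 to 367 CPM, Ebf1 at 15.7 to 53.9 CPM, and the 7 B cell markers summed to 76.0 to 394 CPM. Between 4 and 7 of them could be tested, depending on the comparison of groups, and 0 passed. Of the plasmacytoid dendritic cell list, Ly6d and Klk1 stayed at or below 0.25 and 0.11 CPM, while Siglech and Tcf4, which microglia and many other cells use as well, were at 24.3 to 658 CPM and 219 to 420 CPM.

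The mean level of every member was lower at P7 than at P14, and the 2 ages are also 2 sequencing tables, so that age and batch cannot be told apart. Among controls the ratio of mean CPM at P14 to that at P7 was 5.53 for H2-Aa, 3.44 for H2-Ab1, 4.62 for H2-Eb1, 4.21 for Cd74, 5.97 for Cd209a, 3.12 for Ciita, 2.59 for H2-DMb1, 2.33 for Flt3 and 1.89 for H2-DMa. Among HIE animals the same ratio ran from 1.20 for H2-DMa to 5.83 for H2-Aa. The ranges of P7 and P14 overlapped in both treatments for H2-DMa and in HIE animals for Ciita, and in neither for the other 7 genes. The share of all genes without such overlap was not counted, so no trait of these genes is read from it. In the P6H55 controls alone the mean was 13.8 CPM of H2-Aa, 61.1 CPM of Cd74 and 2.59 CPM of Cd209a, against 46.5, 151 and 8.98 CPM in the P14 controls. The gap was smaller for H2-DMa, at 16.7 against 20.8 CPM, and for H2-DMb1, at 6.77 against 10.7 CPM. CPM were scaled within each age, so ratios between ages also rest on separate scalings.

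HIE and control animals could not be separated at P7 by any member. Cd74 was at 42.4 and 79.9 CPM in the controls of litter P6H55, at 11.2 and 10.002 CPM in those of P6H63, at 29.997 and 43.5 CPM in HIE litter N5 and at 39.2 and 64.8 CPM in HIE litter N8. All 4 HIE animals were above the P6H63 controls and overlapped with those of P6H55. H2-Aa was at 10.8 and 16.8 CPM in P6H55, 2.50 and 3.52 in P6H63, 4.61 and 8.31 in N5, and 6.28 and 14.0 in N8. Cd209a was at 1.97 and 3.21 CPM in P6H55, 0.459 and 0.372 in P6H63, 1.78 and 2.05 in N5, and 2.10 and 3.22 in N8. For both genes each P6H63 animal was below all other P7 animals. Ciita was at 1.38, 1.81, 1.21 and 1.66 CPM in the controls, in the order of the litters above, and at 1.42, 1.77, 1.31 and 2.48 CPM in HIE, and did not share this split.

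The number of members past an adjusted p of 0.05 for HIE against control at P7 was 0 of 9 by edgeR's quasi-likelihood test, beside 0.0666% of all genes tested, and 0 had an unadjusted p under 0.05; DESeq2 called 0 as well. The fitted log2 fold changes ran from -0.18 (SE 0.71) for H2-Eb1 to 0.66 (SE 0.47) for H2-DMa, and the median was 0.12, beside -0.08 over all genes tested. Without the P6H63 litter, Cd74 had a log2 fold change of -0.46 in place of 0.31, H2-DMb1 of -0.59 in place of 0.12 and Cd209a of -0.17 in place of 0.61. In the same fit H2-Aa had a value of -0.73, H2-Ab1 of -0.72, H2-Eb1 of -0.90, Flt3 of -0.40, Ciita of 0.13 and H2-DMa of 0.06, and 0 of the 9 passed, with adjusted p from 0.391 to 0.942 by edgeR. The other class II pathway genes had 0 of 17 tested past the threshold, with Lgmn at 1.02 (SE 0.67) and Ctss at 1.16 (SE 0.76), which without the P6H63 litter were at 0.22 and 0.32. The microglia markers had a median log2 fold change of 1.13 and the astrocyte markers one of -1.14 in the same comparison, or 0.34 and -0.36 without that litter, with 0 past the threshold either way, and the part of cell content in the P7 values was not tested. The HIE effect at P7 minus that at P14 was past the threshold for 0 of the 9 genes, with 0 at an unadjusted p under 0.05, beside 0.00405% of all genes tested.

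At P7 the control litters P6H63 and P6H55 differed for most members. Tested jointly over both litter pairs within treatment groups, 6 of 9 members passed an adjusted p of 0.05 by edgeR, H2-Aa, H2-Ab1, Cd74, H2-DMa, H2-DMb1 and Cd209a, beside 40.2% of all genes tested. This share is high across the transcriptome, so the members are described here without reading a particular litter effect from them. The p-values are those of the joint test. P6H63 animals fell below P6H55 animals by 2.63 on the log2 scale for Cd209a (adjusted p = 0.0024), by 2.53 for Cd74 (adjusted p = 0.0028), by 2.20 for H2-Aa (adjusted p = 0.0135) and by 2.21 for H2-DMb1 (adjusted p = 0.0344). H2-Eb1, at a log2 difference of -2.24, had an adjusted p of 0.0587, and Ciita, at -0.15, one of 0.803. N8 differed from N5 by between 0.06 for H2-DMa and 0.74 for H2-Ab1, and with the HIE litters alone 0 members passed. The 11 microglia markers and the 8 border macrophage markers all passed in the same test with lower values in P6H63, among them Mrc1 at -2.85 and Cd163 at -3.15. Of the 17 other class II pathway genes tested 9 passed, all lower in P6H63, with Marchf1, which marks class II for degradation, at -2.77, Ctss at -3.27 and Lgmn at -2.80. Endothelial markers went the other way, 6 of 6 higher in P6H63, with Cdh5 at 1.27.

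**Figure D3:**
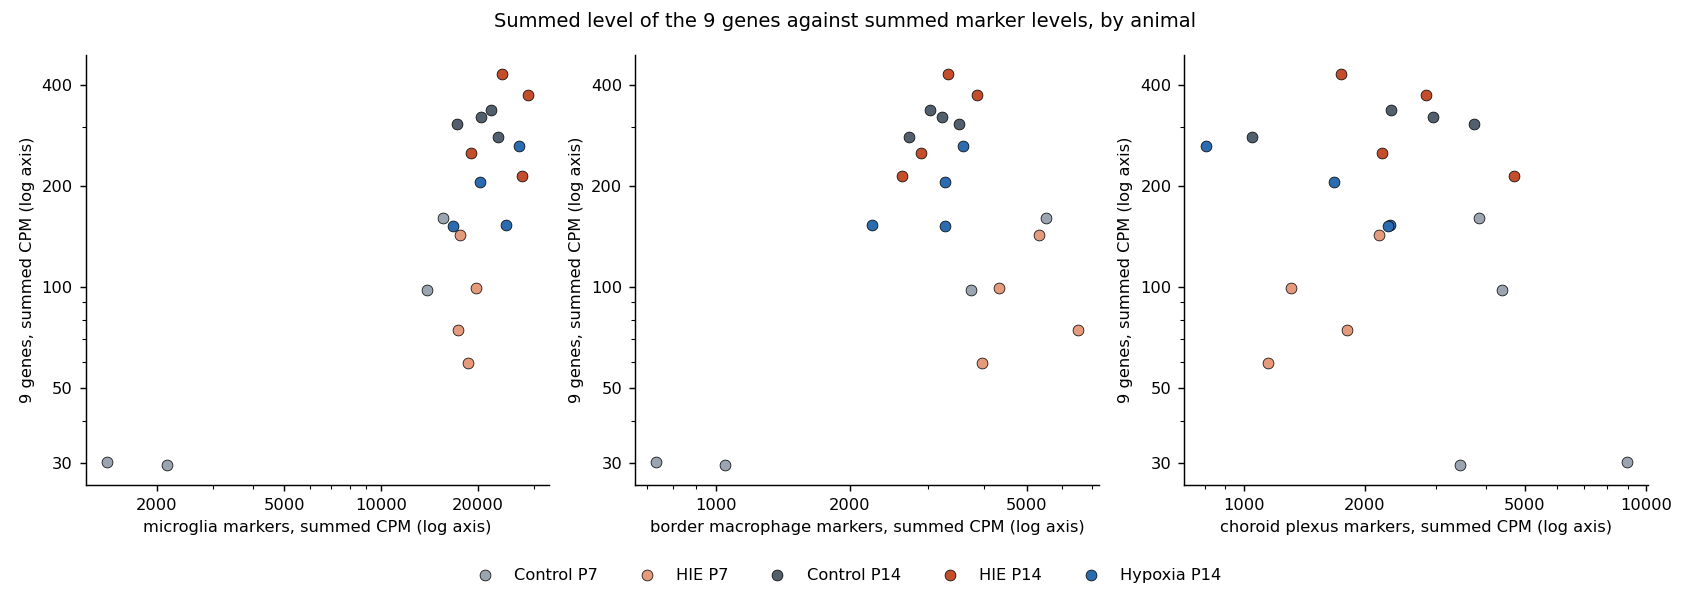
Summed CPM of the 9 genes (y axis, log) against the summed CPM of microglia, border macrophage and choroid plexus markers (x axes, log) in the 20 animals. The 2 P6H63 controls, at 29.5 and 30.2 CPM for the 9 genes, are lowest on the microglia and border macrophage axes, and the 12 P14 animals lie at 152 CPM or above.

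At P14 the litters within groups did not differ past the threshold for any of the 9 genes, with 0 at an unadjusted p under 0.05, beside 0.0969% of all genes tested that passed. The fold between the 2 littermates of a P14 litter ran from 1.01 for H2-Eb1 in P6H12 to 2.82 for H2-Eb1 in P6H7. With 2 litters in each group and 1 treatment in each litter, an exact permutation test over litters cannot give a two-sided p under 0.333, so the tests above treat animals as units and litter and treatment cannot be told apart within them.

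H2-Ea, the α chain that pairs with the H2-Eb1 product to form I-E, was present or absent by animal. In several mouse H2 haplotypes, that of C57BL/6 among them, this gene is known not to be transcribed. It was not among the 9 genes and was picked out after its values were seen. H2-Ea had 0 counts in 8 of 20 animals: all 4 controls set against P7 HIE, N8-4, both animals of P4H1, and P6H9-15F. A count of 0 allows at most 3 counts, which is 0.0348 to 0.0902 CPM in these 8 libraries and covers counting error only. The other P7 animals, N5-3, N5-4 and N8-3, were at 0.906, 1.296 and 1.91 CPM. The other P14 animals were at 10.2, 14.4, 13.3 and 12.6 CPM in controls, 20.9 and 20.7 CPM in P6H12, and 10.1, 7.38 and 7.19 CPM in hypoxia. In 2 litters, N8 and P6H9, 1 animal had the transcript and its littermate had none.

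H2-Eb1 was read in all 20 animals, with or without H2-Ea. P4H1-6F had 42.4 CPM of H2-Eb1, the highest of all, with H2-Ea at 0. Where H2-Ea was present, its CPM was 0.170 to 0.644 times that of H2-Eb1. The P14 litter test gave H2-Ea an unadjusted p of 0.0028 and an adjusted p of 0.106 by edgeR. In the P7 fits of all animals, the filter on low counts removed H2-Ea and it was not tested. Without the P6H63 litter it was tested for HIE against control, with the remaining controls at 0 counts. The log2 fold change was 9.23, with an unadjusted p of 0.0153 and an adjusted p of 0.236 by edgeR.

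Other genes beside H2-Ea in the class II region varied in a related way and were likewise picked after their values were seen. Btnl2, a butyrophilin-like gene at 34573796-34589290 next to H2-Ea on chromosome 17, was at 0.139 and 0.0848 CPM in P4H1 and at 0.0902 CPM in P6H9-15F, against 0.781 to 2.61 CPM in the other 9 P14 animals. At P7 it was at 6.33, 4.69 and 4.49 CPM in the 3 animals with H2-Ea and at 0.0465 to 0.653 CPM in the other 5. The rank correlation between H2-Ea and Btnl2 was 0.65 over the 20 animals, which fall in 2 batches and 10 litters. H2-Eb2 went a different way at P14, with 3.87 and 3.39 CPM in P4H1 and 0.739 and 0.120 CPM in P6H12, and 0.378 to 1.33 CPM in the other animals. H2-DMb2 was at 12.99 and 18.6 CPM in P4H1 and at 6.01 and 3.87 CPM in P6H12, and at 3.56 to 11.9 CPM in the other P14 animals, lowest in P6H8-7M. H2-Eb2 and H2-DMb2 had a rank correlation of 0.94 over the 12 P14 animals. Whether the animals differ in H2 haplotype, and whether reads of other haplotypes map less well to the reference, was not tested.

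**Figure D4:**
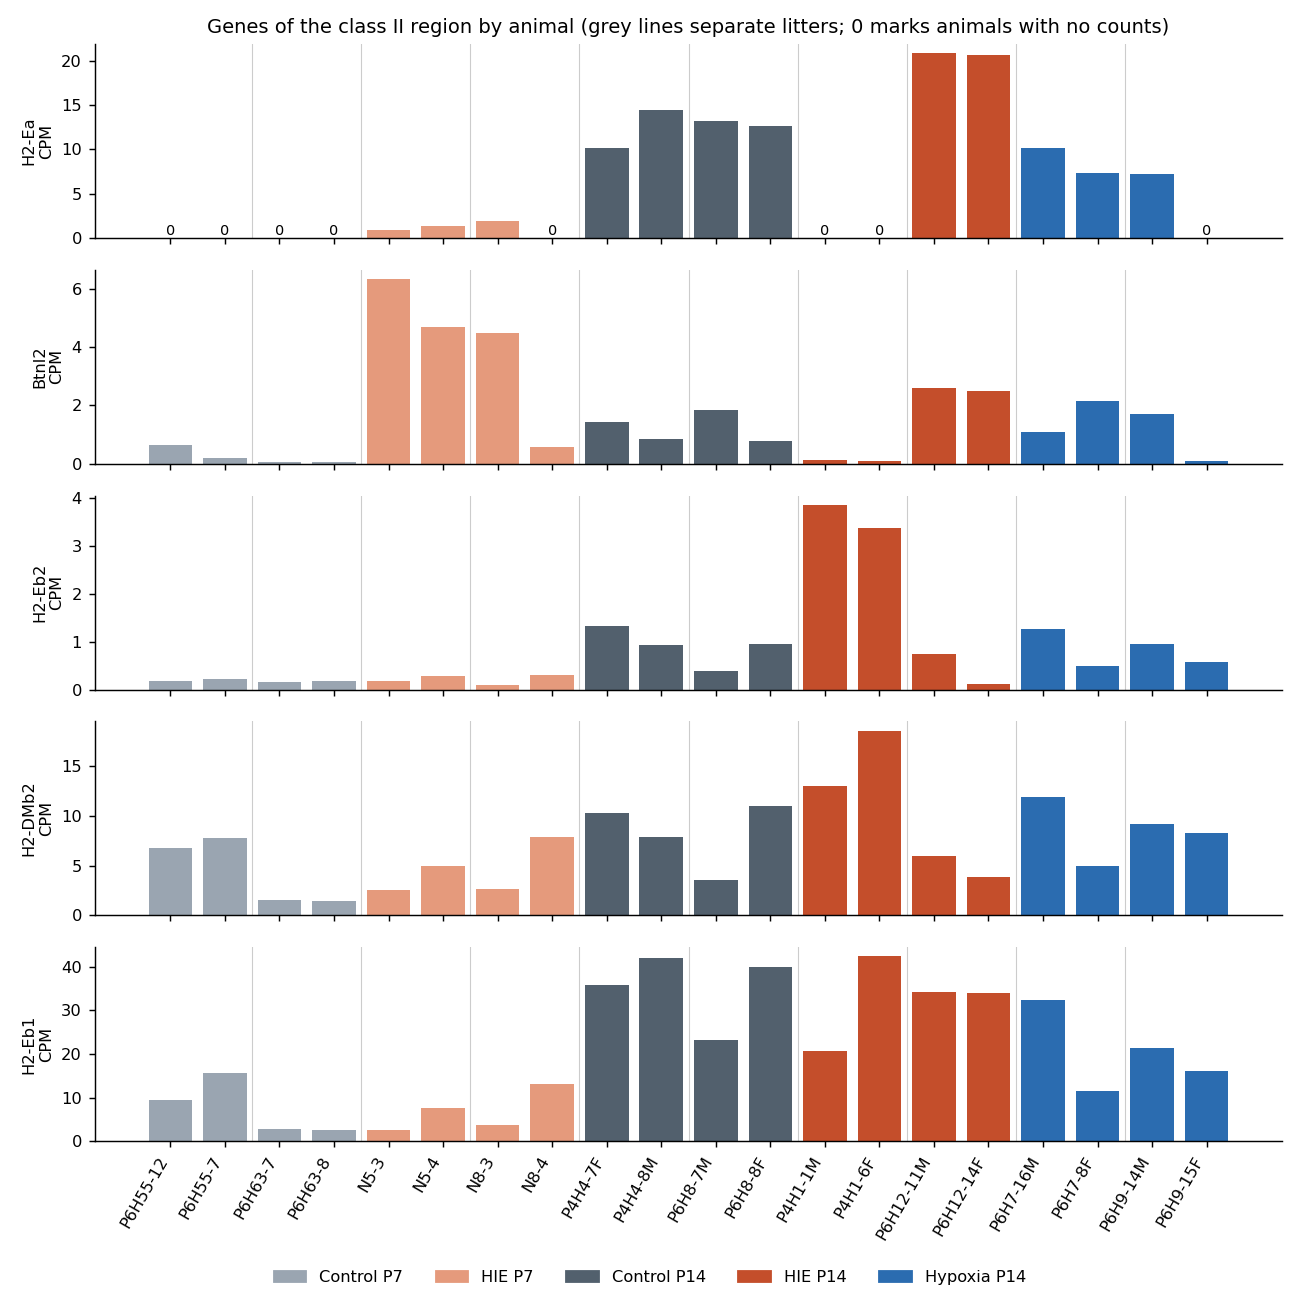
CPM (y axes) of H2-Ea, Btnl2, H2-Eb2, H2-DMb2 and H2-Eb1 in each of the 20 animals (x axis), coloured by group, with lines between litters. H2-Ea is at 0 in 8 animals, while H2-Eb1 is read in all 20.

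Ratios to Cd74 in the same animal showed which members kept step with it. H2-Aa was 0.291 to 0.369 times Cd74 over the 12 P14 animals, including the hypoxia group at 0.306 to 0.369, and Ciita was 0.0233 to 0.0352 times Cd74. At P7, H2-Aa was 0.154 to 0.215 times Cd74 in HIE animals and 0.210 to 0.352 times in controls, highest in P6H63-8. These ranges overlapped and the difference was not tested. H2-DMa ran from 0.0608 times Cd74 in P6H8-7M to 0.556 in P6H63-8, and Flt3 from 0.00874 to 0.0871. P6H8-7M had 10.01 CPM of H2-DMa with 165 CPM of Cd74, while its littermate had 26.5 and 162 CPM. H2-DMb2 was 0.426 times H2-DMb1 in P6H8-7M and 0.487 times in P6H12-14F, and 0.634 to 1.20 times in the other 18 animals. The I-A chains also shifted, with H2-Aa at 2.35 times H2-Ab1 in P6H12-14F and at 1.20 to 1.70 times in the other P14 animals.

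**Figure D5:**
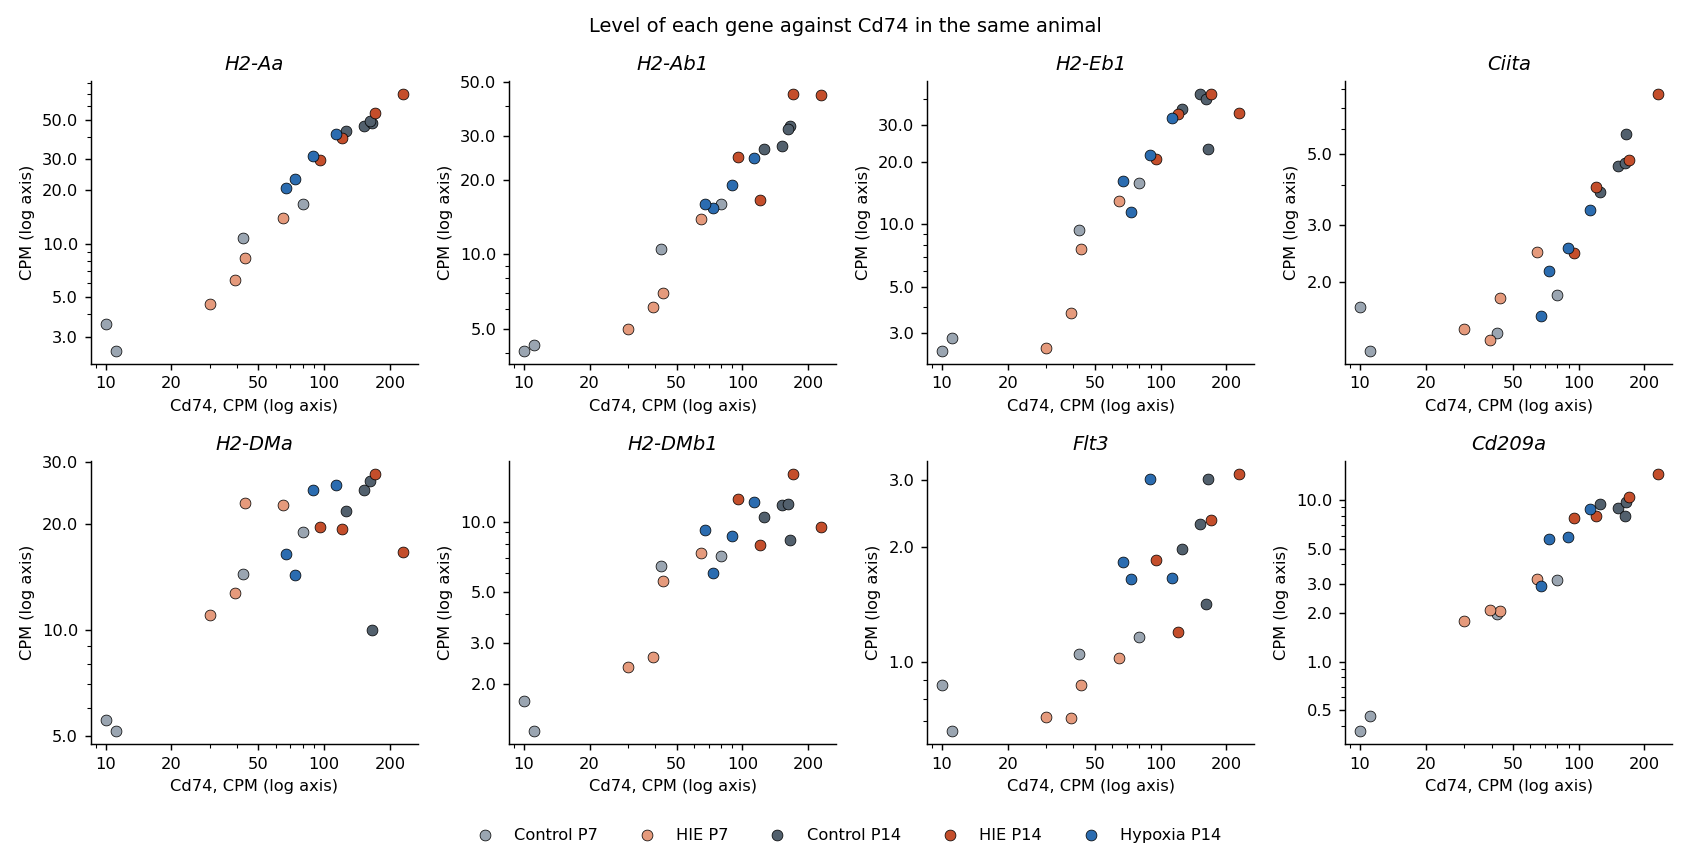
CPM of each of the other 8 genes (y axes, log) against CPM of Cd74 (x axes, log) in the same animal, coloured by group. H2-Aa lies close to a line over the 12 P14 animals, at 0.291 to 0.369 times Cd74, while H2-DMa, H2-DMb1 and Flt3 scatter.

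Over the 12 P14 animals, the rank correlation of log2 CPM with Cd74 was 0.98 for H2-Aa, 0.98 for Ciita, 0.94 for H2-Ab1, 0.92 for Cd209a and 0.78 for H2-Eb1, and 0.43, 0.32 and 0.27 for Flt3, H2-DMb1 and H2-DMa. At P7, over 8 animals of which 2 are the P6H63 animals, it was 0.67 for Ciita and 0.76 to 0.98 for the other 7. These are descriptions over animals that share litters and treatments. Among 15715 genes with a mean of at least 1 CPM at each age, the 5 whose log2 CPM was most like that of H2-Ab1, by the smaller of the 2 Pearson correlations over the 12 P14 and the 8 P7 animals, were Cd74 (0.89), H2-Aa (0.88), Napsa (0.84), Cd209a (0.79) and Zbtb4 (0.78). For Cd209a they were Zxda (0.89), Lag3 (0.89), Fgf11 (0.89), Cd74 (0.88) and H2-Aa (0.88).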

How the data were processed

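RNA was sequenced from CD11b-enriched brain cells of 20 animals in 22 libraries, prepared with the Illumina Stranded Total RNA kit and Ribo-Zero Plus. The authors aligned reads to GRCm39 with STAR and deposited RSEM expected counts per gene, not scaled for library size, in 2 tables, one for each age. The annotation release and the strand setting of the counting are not given in the sources used here.

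Expected counts were rounded to whole numbers, and the 2 libraries of 2 animals were summed. Of 56691 gene identifiers, 56017 were matched to GENCODE M39. Counts were tested with edgeR 4.0.16 (R 4.3.3) by glmQLFit and glmQLFTest after TMM scaling and filterByExpr, with Benjamini-Hochberg adjustment over all genes tested and a threshold of 0.05. CPM used TMM library sizes and log2 CPM a prior count of 2. P7 and P14 were fitted apart, except for the difference between the HIE effects, for which all 16 HIE and control animals were fitted together. Litter differences within treatment groups were tested jointly by an F test. Nothing in the labels says that the animals of a group are independent beyond their names, and littermates share a dam, so p-values may be too small. Depth was 29.8 to 83.5 M counts, and 3 counts were taken as the limit for a count of 0.

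The members and lists were chosen with earlier results of these data known. The lists held class II pathway genes, the interferon gamma route, neighbours in the class II region, and markers of dendritic cells, plasmacytoid dendritic cells, B cells, border macrophages, monocytes, microglia, endothelium, choroid plexus, neurons and astrocytes. Of each list, up to 3 genes a direction with the smallest p among those past the threshold were named, or the 2 most abundant where none passed. Some genes that this rule names are not reported here. Alternatives were RLE size factors, library size only, no filter, DESeq2 1.42.0, sex label as covariate, all P14 groups in one fit, the name prefix as block, P6H animals only, the first library of each animal, and each animal left out. Leaving out the P6H63 litter and testing HIE litters alone were added after seeing the data. The tests were also run on simulated counts of independent animals, without litter effects. That run therefore does not show how they behave with littermates. Figures were drawn with matplotlib 3.10.9.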

Additional observations from a re-analysis of the deposited data

Results flagged for a closer look

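Flt3 in the hypoxia group at P14 had 1 animal apart from the other 3. P6H9-14M was at 3.03 CPM and the others at 1.65 to 1.83 CPM, a gap of 0.865 of the group's range. It was the only one of 45 combinations of gene and group with such a gap, and chance alone gives about 1 in 20.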

How the results depend on the processing

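No member was past the threshold in the 4 comparisons of groups or for the difference between ages under any alternative, except that DESeq2 called 3 for hypoxia against control. No paired analysis was possible because the animal names carry no replicate number shared between the groups. Where a value below changed, the cause was not tested. For HIE against control at P7, 15 genes were called in all, 3024 with DESeq2, 26 without the P6H63 litter and 10 to 5588 with 1 animal left out. For HIE against control at P14 the count was 1, and 3 with no filter, 490 with DESeq2, 2 with library size only, 0 with all P14 groups, 2 with the name prefix as block and 0 to 6 with 1 animal left out. For hypoxia against control it was 2, and 164 with DESeq2, 1 with the sex label, 0 with all P14 groups, 0 with P6H animals only and 1 to 7 with 1 animal left out. For HIE against hypoxia it was 2, and 5 with no filter, 15 with DESeq2, 1 with the sex label, 0 with all P14 groups and 1 to 3 with 1 animal left out. The P7 litter test called 9056 genes and 6 members, 39 and 0 with HIE litters only, and 5985 to 8206 and 2 to 7 with 1 animal left out. The P14 litter test called 21 genes and 0 members, 5020 and 1 (Cd74) with no filter, 3095 genes with DESeq2, and 14 to 270 with 1 animal left out. The difference between ages called 1 gene, 673 with DESeq2, 0 without the P6H63 litter and 0 to 1200 with 1 animal left out.

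Signs of log2 fold changes turned mostly where they were near 0. For HIE against control at P7, H2-Aa was at 0.0036 with RLE, 0.013 with no filter and 0.0029 with DESeq2, Cd74 at -0.0365 with the sex label and -0.46 without the P6H63 litter, H2-DMb1 at -0.59 and Cd209a at -0.17 without that litter. At P14, H2-DMa was at 0.016 with no filter, 0.00507 with the sex label, 0.000934 with all P14 groups and 0.014 with first libraries, Cd74 at -0.014 and Ciita at -0.029 with library size only, and Ciita at -0.022 with the block. For hypoxia against control H2-DMa was at 0.16 with P6H animals only. For HIE against hypoxia H2-DMa was at -0.021 with library size only and -0.20 with P6H animals only, where H2-DMb1 was at -0.067. With 1 animal left out, the P7 values ran from -0.39 to 0.59 for H2-Aa, -0.53 to 0.37 for H2-Ab1, -0.71 to 0.48 for H2-Eb1, -0.0032 to 1.09 for Cd74, -0.011 to 0.32 for Ciita and -0.23 to 0.54 for H2-DMb1. The P14 HIE against control values ran from -0.18 to 0.23 for H2-Aa, -0.063 to 0.34 for H2-Ab1, -0.26 to 0.068 for H2-Eb1, -0.24 to 0.20 for Cd74, -0.34 to 0.22 for Ciita, -0.23 to 0.13 for H2-DMa, -0.10 to 0.25 for H2-DMb1, -0.27 to 0.17 for Flt3 and -0.037 to 0.29 for Cd209a. Against hypoxia they ran from -0.19 to 0.30 for Flt3 and -0.16 to 0.16 for H2-DMa, and for hypoxia against control from -0.35 to 0.10 for Flt3 and -0.26 to 0.10 for H2-DMa. Library size only moved the median over all genes at P7 from -0.08 to -0.28.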
